A study of Mus musculus with 12 samples.

Results

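The genes described here encode the 3 chains of clathrin, the subunits of the adaptor complexes AP-1 to AP-4, the GGA adaptors and 5 endocytic accessory proteins, 33 genes among the 48623 of the table. They were chosen by gene symbol. Mean TPM was to decide between several Ensembl identifiers of a symbol, but each of the 33 symbols had 1 identifier, so no measured value decided between identifiers. All 33 were found, and 32 of them were among the 11204 genes above the expression limit, a mean log2(TPM + 1) of 1.5. The remaining gene, *Ap1s3*, was between 0.0355 and 0.724 TPM in every library and was not tested. The members were chosen with earlier results of these data known. *Ap2m1*, *Ap1b1* and *Picalm* in particular were put on the list with earlier IL-4 results of these same libraries known. Their IL-4 values are therefore a description of known responders rather than independent evidence.

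The libraries came from primary microglia of newborn C57BL/6J mice, either wild type (WT) or carrying 2 copies of a *Trem2* allele with the R47H change (KI). The 3 WT cultures are called T13, T33 and T43 and the 3 KI cultures T15, T22 and T32. From every culture, cells left untreated and cells given 20 ng/ml IL-4 for 48 h were sequenced, so that IL-4 varied within cultures and genotype between them. The fit reported has no culture term and treats the 12 libraries as independent, so its IL-4 p-values are not paired. Its genotype p-values count the 2 libraries of a culture as separate replicates, although each genotype had 3 cultures, and so can be too small. A fit with culture as a replicate block was an alternative. Per the study's methods, littermate pups of the KI strain were prepared together, cultured separately and genotyped afterwards. Which of the cultures here shared a litter is not given, and the fits do not allow for it. TPM, transcript abundances, are corrected for transcript length and sum to 1000000 per library. They keep no read counts, so the reads behind each library's values and their counting error are unknown, the study's methods giving only a nominal number of reads. All p-values below are from limma on log2(TPM + 1), an F-test for IL-4 and for genotype unless named otherwise, adjusted over the 11204 genes by the Benjamini-Hochberg method, with 0.05 as the threshold, and "difference" means a difference on that log2 scale with its standard error (SE).

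*Trem2* was between 1190 and 1886 TPM in WT and between 325 and 770 TPM in KI libraries, with no overlap between the genotypes. The summed TPM of 15 microglial markers ranged from 38171 to 38764 in untreated WT, from 42589 to 50791 in IL-4-treated WT, from 16468 to 33696 in untreated KI and from 26841 to 37471 in IL-4-treated KI cultures. Markers of other cell types were present as well. Over the 12 libraries they summed to 167 to 4788 TPM for astrocytes, 19.4 to 142 TPM for endothelial cells and 6.77 to 63.6 TPM for neurons. *Flt1* made up most of the endothelial sum. In these lists only *Syt1*, a neuronal marker, and *Cldn5*, an endothelial one, were listed at 0 in all libraries.

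Clathrin forms a lattice of trimers, each with heavy chains and light chains, that bends a membrane into a coated vesicle. Clathrin does not bind membrane or cargo itself. Adaptors do this, with AP-2 working at the plasma membrane, AP-1 and the GGAs between the trans-Golgi network and endosomes, AP-3 in transport to lysosomes and related organelles, and AP-4 at the Golgi, where it acts without clathrin. In microglia the same machinery takes up receptors and their ligands, and *PICALM* lies at a human locus associated with Alzheimer's disease.

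IL-4 activates STAT6, a factor that binds palindromes of the form TTCNNNNGAA, so the promoters of the 5 genes past a threshold below are shown to let the letters around their starts be read beside the values. They cover 250 bases before and 50 bases after the gene start, are from RefSeq (GRCm38.p6) and read 5′ to 3′ on the coding strand. *Ap2m1* (chr16:20535230-20535529, plus strand), *Clta* (chr4:44004193-44004492, plus strand) and *Ap1b1* (chr11:4986574-4986873, plus strand) were higher with IL-4. *Cltb* (chr13:54611324-54611623, minus strand) was higher and *Dab2* (chr15:6299539-6299838, plus strand) lower in KI. For *Clta* and *Dab2*, which have 2 listed starts, the window nearest to the annotated gene start is given. Capitals mark every match to the motifs searched, on either strand.
Ap2m1: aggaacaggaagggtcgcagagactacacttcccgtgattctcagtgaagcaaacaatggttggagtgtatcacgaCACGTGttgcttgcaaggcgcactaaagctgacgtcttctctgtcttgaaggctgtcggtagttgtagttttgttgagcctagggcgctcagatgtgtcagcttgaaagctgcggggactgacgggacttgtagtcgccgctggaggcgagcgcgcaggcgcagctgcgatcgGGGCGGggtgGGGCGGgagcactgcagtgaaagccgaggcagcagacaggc
Clta: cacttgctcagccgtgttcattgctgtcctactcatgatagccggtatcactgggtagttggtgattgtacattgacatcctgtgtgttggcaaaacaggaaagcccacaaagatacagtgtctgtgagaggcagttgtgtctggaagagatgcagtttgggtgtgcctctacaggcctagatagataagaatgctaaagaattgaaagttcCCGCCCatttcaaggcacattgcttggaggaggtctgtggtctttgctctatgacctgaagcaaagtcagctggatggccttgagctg
Ap1b1: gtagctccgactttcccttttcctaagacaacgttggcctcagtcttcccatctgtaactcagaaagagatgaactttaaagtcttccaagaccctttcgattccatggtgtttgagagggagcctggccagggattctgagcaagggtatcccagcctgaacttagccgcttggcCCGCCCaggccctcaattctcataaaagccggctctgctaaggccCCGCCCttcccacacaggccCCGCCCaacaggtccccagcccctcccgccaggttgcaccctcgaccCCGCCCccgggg
Cltb: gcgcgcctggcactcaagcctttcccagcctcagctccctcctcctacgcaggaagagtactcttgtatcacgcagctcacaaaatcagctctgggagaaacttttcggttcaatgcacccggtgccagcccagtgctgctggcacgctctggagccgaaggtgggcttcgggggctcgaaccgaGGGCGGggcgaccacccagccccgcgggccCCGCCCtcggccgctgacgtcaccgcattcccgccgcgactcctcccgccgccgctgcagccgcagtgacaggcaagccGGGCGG
Dab2: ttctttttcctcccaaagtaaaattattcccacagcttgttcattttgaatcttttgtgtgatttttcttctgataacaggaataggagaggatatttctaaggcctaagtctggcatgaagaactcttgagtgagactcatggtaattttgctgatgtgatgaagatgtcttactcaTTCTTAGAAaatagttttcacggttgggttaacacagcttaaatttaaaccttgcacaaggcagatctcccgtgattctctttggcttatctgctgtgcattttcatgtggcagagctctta

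The motifs searched on both strands, chosen with the expression values known, were TTCNNNNGAA, the related TTCNNNGAA of other STAT factors, GAGGAAGT (a PU.1 core), CACGTG (an E-box), GGGCGG (a GC box) and CCAAT. TTCNNNNGAA was in 6.95% of all 32851 promoter windows of this length. Among the 33 windows of the 30 members in the RefSeq table it was in those of *Ap2b1* and *Gga2*, neither of which passed the IL-4 threshold, and in none of *Ap2m1*, *Clta* or *Ap1b1*. TTCNNNGAA was in 8.3% of all windows and in those of *Ap4e1*, *Dab2* and *Gga2*, and GAGGAAGT was in 3.2% of all windows and in no member's. The capitals in *Ap2m1* are an E-box, found in 7.15% of all windows and in 6 of the 33 members' windows (those of *Ap1s2*, *Ap2m1*, *Epn1*, *Gga2* and *Picalm*), and GC boxes, found in 35.7% of all windows and in 20 of the members'. The members' windows also had more G and C, a median of 59.7% against 52.7% over all windows. CCAAT was in 37.4% of all windows and 12 of the members'. A match is only a run of letters, and its absence from this window says nothing about STAT6 at these genes. *Ap1m1*, *Ap3m2* and *Ap3s1* have no entry.

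IL-4 raised 3 of the 32 members tested and lowered none. These were *Ap2m1*, the medium chain of AP-2, *Clta*, the more abundant clathrin light chain, and *Ap1b1*, the beta chain of AP-1. Because *Ap2m1*, *Ap1b1* and *Picalm* were listed with their IL-4 results known, the member counts in this paragraph are a description. The all-gene shares beside them do not make them a test. Of all genes tested, 0.75% were past the same threshold and higher, or 84 genes, a number that ran from 42 without WT T43 to 119 without KI T15 when each culture was left out and was 201 with culture as a replicate block. *Ap2m1*, *Clta*, the clathrin heavy chain *Cltc* and *Picalm* were higher with IL-4 in 6 of 6 cultures, a pattern shown by 5.73% of all genes tested, and 0 members against 2.51% of all genes were lower in 6 of 6. The median IL-4 difference was 0.14 over the 32 members and 0.04 over all genes. In bulk RNA, a change in the make-up of a culture and a change in RNA per cell cannot be told apart, here or in any result below. The summed TPM of the microglial markers was also higher with IL-4 in every culture, with *C1qa* higher and *Cx3cr1* lower past the threshold. The 5 endothelial markers, of which 2 were expressed, summed to 19.4 to 29.1 TPM untreated and 61.0 to 142 TPM with IL-4. Most of this sum was *Flt1*, which was higher past the threshold. *Flt1* averaged 21.8 TPM untreated and 89.8 TPM with IL-4 in WT, and 17.7 and 73.6 TPM in KI. *Pecam1* was at most 9.19 TPM, *Kdr* 1.23 TPM and *Cdh5* 0.334 TPM, and *Cldn5* was at 0. The part of these markers in the IL-4 differences was not tested.

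**Figure D1:**
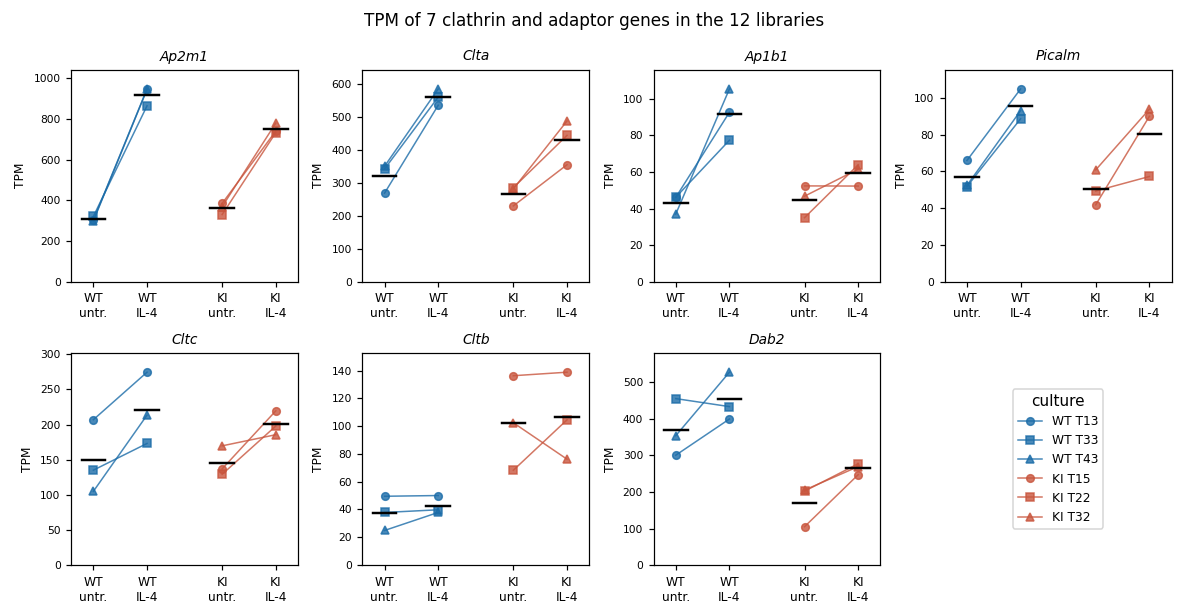
TPM (linear axis from 0) of *Ap2m1*, *Clta*, *Ap1b1*, *Picalm*, *Cltc*, *Cltb* and *Dab2* in the 12 libraries. Each line joins the untreated and the IL-4-treated library of a culture, WT in blue and KI in red, and black bars are means of 3 cultures. *Ap2m1* climbs in all 6 cultures, while *Cltb* lies higher and *Dab2* lower in KI than in WT with no overlap.

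*Ap2m1* (chromosome 16, 20535478 to 20544909, plus strand, GRCm38) encodes the AP-2 subunit that reads tyrosine-based sorting signals in the tails of receptors, and it was the most abundant member. In WT cultures T13, T33 and T43 it was at 303, 322 and 299 TPM untreated and at 949, 865 and 947 TPM with IL-4. In KI cultures T15, T22 and T32 it was at 386, 331 and 369.7 TPM untreated and at 742, 734 and 781 TPM with IL-4. Every IL-4-treated library was thus above every untreated one, the highest untreated library being KI T15 and the lowest treated one KI T22. The mean rose 2.99-fold in WT and 2.08-fold in KI, and the IL-4 difference averaged over genotypes was 1.32 (SE 0.09, adjusted p = 8.38e-06 by limma). All 13 other fits tried kept it past the threshold, with differences from 1.18 to 1.35.

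An assembled AP-2 complex holds its subunits in equal numbers, but the other 4 subunit genes did not pass the IL-4 threshold. *Ap2s1*, the small subunit, was at 275 TPM on average over the 12 libraries (223 to 329) and had an IL-4 difference of 0.22. The alpha chains *Ap2a1*, at 41.9 TPM (25.2 to 56.8), and *Ap2a2*, at 28.6 TPM (20.1 to 48.1), had IL-4 differences of 0.18 and 0.45. *Ap2b1*, the beta chain, was at 20.0 TPM (13.8 to 31.7) with a difference of 0.31. For these 4 subunits the limma p-values after adjustment ran from 0.872 to 0.963, and whether their responses differed from that of *Ap2m1* was not tested. As a share of the summed TPM of the 5 AP-2 subunits, *Ap2m1* went from 47.9% ± 1.98 to 69.6% ± 1.496 in WT and from 51.9% ± 1.98 to 65.8% ± 1.19 in KI (SD, n = 3 each), and it increased in 6 of 6 cultures by 11.1 to 22.7 percentage points. TPM are corrected for transcript length, but the libraries were poly(A)-primed and PCR-amplified, and whether short and long transcripts were captured alike was not tested. These shares are therefore no measure of subunit numbers. They were chosen after the values were seen and are given without a test.

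**Figure D2:**
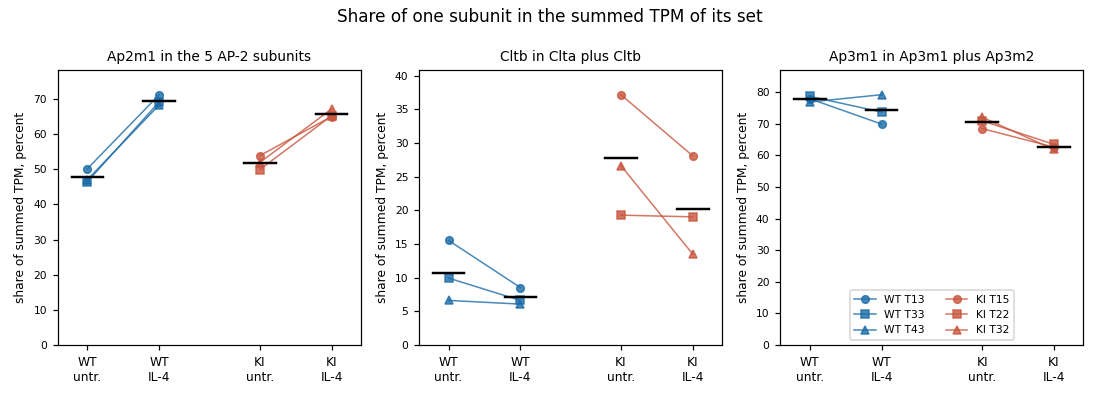
Share (percent, linear axis from 0) of *Ap2m1* in the summed TPM of the 5 AP-2 subunits, of *Cltb* in *Clta* plus *Cltb*, and of *Ap3m1* in *Ap3m1* plus *Ap3m2*, in the 12 libraries. Lines join the 2 libraries of a culture (WT blue, KI red) and black bars are means of 3. The *Ap2m1* share runs from 46.5% to 53.9% in untreated and from 65.0% to 71.2% in IL-4-treated libraries.

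*Clta* (chromosome 4, 44004452 to 44032846, plus strand) encodes light chain a, which binds the heavy chain and, like light chain b, links the coat to actin. In WT cultures it was at 269, 343 and 351 TPM untreated and at 536, 561 and 586 TPM with IL-4. The KI cultures held 231, 286 and 282 TPM untreated and at 356, 445 and 489 TPM with IL-4. Within each genotype the treated and untreated libraries did not overlap. The IL-4 difference was 0.75 (SE 0.12, adjusted p = 0.0132 by limma), between 0.62 and 0.99 in each culture, and its mean rose 1.75-fold in WT and 1.61-fold in KI. The call was lost without an expression filter (adjusted p = 0.0763), after median-ratio scaling (0.104) and without a variance trend (0.173). It was lost as well on leaving out WT T13 (0.0846), WT T33 (0.106), WT T43 (0.130) or KI T32 (0.0580).

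*Cltc* (chromosome 11, 86694351 to 86757565, minus strand), the heavy chain that forms the legs of the lattice, was at 207, 135 and 105 TPM in untreated and 275, 173 and 213 TPM in IL-4-treated WT cultures. The KI values were 137, 129 and 169.7 TPM untreated and at 219.6, 198 and 186 TPM with IL-4. It was higher with IL-4 in every culture, but by between 0.13 and 1.02, and the WT groups overlapped. Its IL-4 difference of 0.53 (SE 0.17) fell short of the threshold (adjusted p = 0.50 by limma), and its genotype difference was -0.05.

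*Picalm* (chromosome 7, 90130213 to 90213465, plus strand) encodes a membrane adaptor that gathers clathrin and SNARE cargo. It was at 66.0, 51.8 and 52.4 TPM in untreated and 105, 88.7 and 93.1 TPM in IL-4-treated WT cultures. In KI cultures it was at 41.9, 49.4 and 60.9 TPM untreated and at 90.0, 57.3 and 93.9 TPM with IL-4. The WT groups did not overlap, whereas KI culture T22 with IL-4 stayed below the untreated library of T32. The IL-4 difference was 0.69 (SE 0.16, adjusted p = 0.154 by limma), short of the threshold. In limma's 1-coefficient test of the averaged difference it passed (adjusted p = 0.0477), and with culture as a replicate block it did not (adjusted p = 0.0544). Over all genes the 1-coefficient test called 128 higher with IL-4, against 84 in the F-test.

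*Ap1b1* (chromosome 11, 4986824 to 5042791, plus strand), the beta chain that recruits clathrin to AP-1, was at 46.1, 46.2 and 37.0 TPM in untreated and 92.6, 77.3 and 105 TPM in IL-4-treated WT cultures. The KI cultures held 52.4, 35.0 and 46.8 TPM untreated and at 52.3, 64.0 and 61.5 TPM with IL-4. The WT groups were far apart, while KI culture T15 hardly moved and the KI groups overlapped. The IL-4 difference averaged over genotypes was 0.74 (SE 0.15, adjusted p = 0.0424 by limma), the result nearest to the threshold. It held in 4 of 13 other fits, and was lost without an expression filter (adjusted p = 0.107), after quantile normalization (0.0686) or median-ratio scaling (0.0608) and without a variance trend (0.173). It was also lost without WT T13 (0.280), WT T33 (0.170), WT T43 (0.636), KI T22 (0.0729) or KI T32 (0.111).

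The other AP-1 subunits gave no IL-4 call, and limma's adjusted p-values for them were all 0.99986. The small chains *Ap1s1* and *Ap1s2*, which complete the core of the complex, were at 134 TPM (101 to 176) and 80.2 TPM (52.4 to 109), with IL-4 differences of -0.07 and -0.12. The medium chain *Ap1m1* was at 57.3 TPM (38.3 to 95.3), with an IL-4 difference of -0.13 and a genotype difference of 0.50 that did not pass (adjusted p = 0.319). The gamma chains *Ap1g1* and *Ap1g2* were at 22.3 TPM (10.996 to 32.3) and 12.8 TPM (6.29 to 21.9), with IL-4 differences of 0.19 and 0.25. The *Ap1b1* share of the summed AP-1 TPM was 13.2% ± 3.12 untreated and 24.0% ± 1.36 with IL-4 in WT, against 11.7% ± 2.39 and 16.2% ± 2.16 in KI (SD, n = 3 each). It rose in 5 of 6 cultures and went from 14.4% to 14.0% in KI T15. The share was chosen after the values were seen, and neither its change nor a difference between genotypes was tested.

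The KI and WT cultures differed past the threshold in 2 of 32 members. *Cltb*, the other clathrin light chain, was higher in KI, where 1.29% of all genes were past the threshold and higher. *Dab2*, a clathrin adaptor for receptors of the LDL receptor family, was lower, as were 0.357% of all genes. They were also the only members whose KI libraries lay on the same side of the WT libraries, without overlap, in both treatments, which held for 3.7% of all genes with KI above WT and for 1.23% with KI below WT. The median genotype difference was -0.04 over the members and 0.13 over all genes. Quantile normalization moved that all-gene median to -0.08 and median-ratio scaling to 0.02, and both kept *Cltb* higher (1.20 and 1.23) and *Dab2* lower (-1.02 and -1.08), past the threshold. Over all genes the split of higher against lower in KI was 145 to 40 as fitted, 84 to 57 after quantile normalization and 130 to 62 after median-ratio scaling. It fell to 2 against 1 without WT T33, 14 against 2 without WT T43, 30 against 18 without KI T15 and 58 against 21 without KI T32, so the all-gene genotype shares moved with single cultures.

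**Figure D3:**
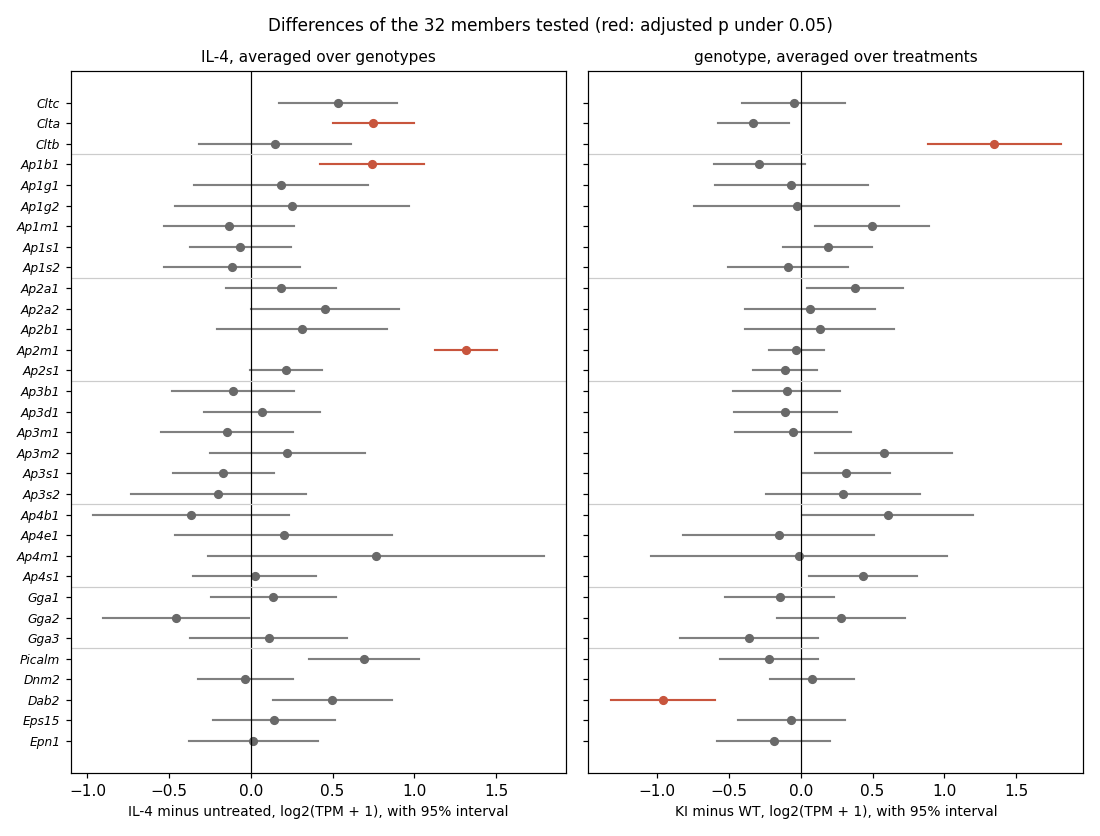
Differences on the log2(TPM + 1) scale for the 32 members tested, IL-4 minus untreated on the left and KI minus WT on the right. Points are estimates, lines 95% intervals from limma, red marks an adjusted p under 0.05 and grey lines separate the complexes. *Ap2m1* stands at 1.32 on the left and *Cltb* at 1.35 and *Dab2* at -0.96 on the right.

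*Cltb* (chromosome 13, 54592401 to 54611344, minus strand) encodes light chain b, which takes the place of light chain a in part of the lattice. In WT cultures it was at 49.5, 37.9 and 24.9 TPM untreated and at 50.1, 39.8 and 37.9 TPM with IL-4. In KI cultures it was at 136, 68.3 and 102 TPM untreated and at 139, 105 and 76.2 TPM with IL-4. The lowest KI library was above the highest WT library in both treatments, and KI T15 was the highest of all. The mean was 2.73-fold higher in KI untreated and 2.50-fold higher with IL-4, and the averaged difference was 1.35 (SE 0.22, adjusted p = 0.0203 by limma). The call was lost without an expression filter (adjusted p = 0.176) or a variance trend (0.0733), and on leaving out WT T33 (0.146), WT T43 (0.156) or KI T15 (0.0789). IL-4 gave a difference of 0.15 (SE 0.22), with 5 cultures higher and 1 lower.

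*Clta* had a genotype difference of -0.33 (SE 0.12) that did not pass (adjusted p = 0.271 by limma). *Cltb* made up 15.5%, 9.94% and 6.63% of the light-chain TPM in untreated WT T13, T33 and T43, and 8.53%, 6.62% and 6.07% with IL-4. In KI T15, T22 and T32 it made up 37.2%, 19.3% and 26.6% untreated and 28.1%, 19.0% and 13.5% with IL-4. The share was lower with IL-4 than without in 6 of 6 cultures, by 0.25 to 13.1 percentage points, and KI lay above WT without overlap in both treatments. This share too was chosen after the values were seen and has no test.

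*Dab2* (chromosome 15, 6299788 to 6440712, plus strand) was the third most abundant member. In WT cultures it was at 301, 455 and 354 TPM untreated and at 399.6, 434 and 528 TPM with IL-4. In KI cultures it was at 105, 202 and 205 TPM untreated and at 247, 277 and 269.6 TPM with IL-4. All KI libraries were below all WT libraries, and the lowest was untreated KI T15. WT was 2.17-fold above KI untreated and 1.71-fold above it with IL-4, and the averaged difference was -0.96 (SE 0.17, adjusted p = 0.0300 by limma). With culture as a random replicate block it narrowly missed the threshold (adjusted p = 0.0513). It was further from it without an expression filter (0.213) or a variance trend (0.106), and on leaving out WT T33 (0.182), WT T43 (0.190) or KI T32 (0.0541). Its IL-4 difference was 0.50 (SE 0.17, adjusted p = 0.531).

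Markers of cell types moved with genotype alongside these 2 genes. Of the 15 microglial markers, 4 were lower in KI past the threshold (*Aif1*, *Csf1r*, *Itgam* and *C1qb*) and none was higher, and the list's sum was lowest, 16468 TPM, in untreated KI T15. Of the 9 mural and fibroblast markers, of which 4 were expressed, *Acta2* and *Tagln* were higher in KI and made up most of the list's sum. That sum was 1051 to 1313 TPM in untreated KI against 141 to 320 TPM in untreated WT. With IL-4 it was 701 to 1190 TPM in KI against 236 to 553 TPM in WT. Among the rest, *Col1a1* averaged 15.5 TPM in untreated KI against 3.66 TPM in untreated WT, but 14.0 against 33.1 TPM with IL-4. *Myh11* was near 0. Of the 9 oligodendrocyte-lineage markers *Olig1* was higher in KI, averaging 180 TPM in untreated KI and 25.4 TPM in untreated WT. The list summed to 114 to 460 TPM in untreated KI and 34.7 to 90.2 TPM in untreated WT. With IL-4 it summed to 96.0 to 315 TPM in KI and 36.7 to 94.9 TPM in WT. *Cspg4* went the other way, averaging 1.74 TPM in KI and 6.71 TPM in WT untreated, and 2.76 and 6.97 TPM with IL-4. *Sox10*, *Mog* and *Pdgfra* averaged at most 0.345 TPM over all libraries. The 9 astrocyte markers gave no call, but the 8 tested had a median genotype difference of 1.82. Their list's sum was 4788 TPM in untreated and 3656 TPM in IL-4-treated KI T15, against at most 691 TPM in any other library. It was 220 to 639 TPM in KI T22 and T32 and 167 to 203 TPM in WT T33 and T43. In WT T13 it was 691 TPM untreated and 615 TPM with IL-4. The 6 neuronal markers gave no call and summed to at most 63.6 TPM in any library, and the 3 tested had a median genotype difference of 1.41. The part of these markers in the *Cltb* and *Dab2* differences was not tested. Without KI T15 the *Cltb* difference was 1.13 and no longer past the threshold (adjusted p = 0.0789 by limma), and the *Dab2* difference was -0.78 (adjusted p = 0.0471 by limma).

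No member had a different IL-4 response in KI than in WT past the threshold (limma's interaction test), and neither did any other gene (0%). Without an expression filter 4 genes of 29745 passed, none of them a member. At an unadjusted p under 0.05, limma gave 3 members, *Ap2m1*, *Ap1b1* and *Ap3b1*, and 357 genes in all, or 3.19%. The all-gene count was 211 without WT T43, 569 without KI T15 and 551 with culture as a replicate block. Over the other fits limma's unadjusted p ran from 0.00078 to 0.0629 for *Ap2m1*, 0.0155 to 0.224 for *Ap1b1* and 0.0132 to 0.140 for *Ap3b1*. None of the 3 stayed under 0.05 in every fit. The IL-4 difference of *Ap2m1* was 1.58 in WT and 1.06 in KI, the gap of -0.52 (95% interval -0.90 to -0.14) having an unadjusted p of 0.0112 and an adjusted p of 0.99966. Untreated KI libraries of *Ap2m1* were all above the untreated WT ones and IL-4-treated KI libraries all below the treated WT ones. For *Ap1b1* the differences were 1.07 in WT and 0.41 in KI, with a gap of -0.66 (95% interval -1.29 to -0.02, unadjusted p = 0.0439, adjusted p = 0.99966). *Picalm*, at 0.75 and 0.64, and *Clta*, at 0.81 and 0.68, had gaps of -0.11 (95% interval -0.79 to 0.57) and -0.13 (95% interval -0.63 to 0.37).

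**Figure D4:**
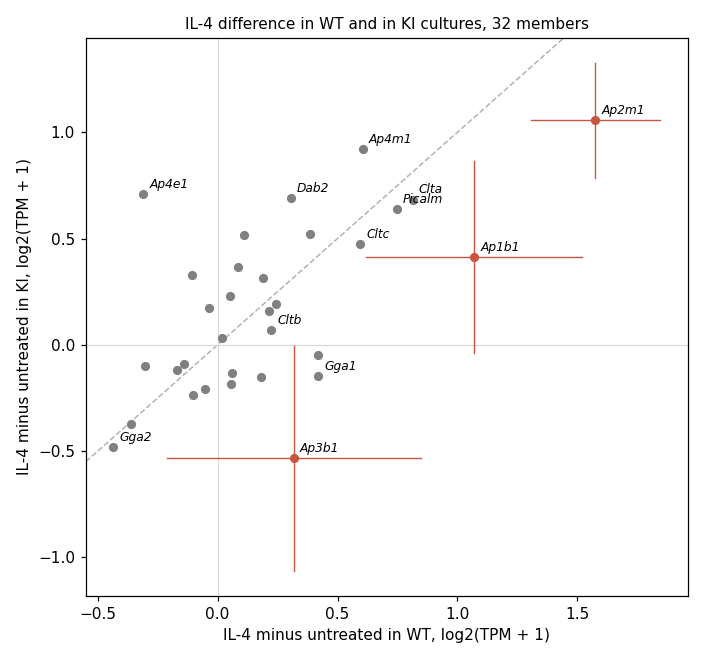
IL-4 difference in WT (horizontal) against that in KI cultures (vertical), both in log2(TPM + 1), for the 32 members tested. The dashed line marks equal responses, and members with an unadjusted interaction p under 0.05 are red with 95% intervals. *Ap2m1* at 1.58 and 1.06, *Ap1b1* at 1.07 and 0.41 and *Ap3b1* at 0.32 and -0.53 lie below the line, and no member passed after adjustment.

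AP-3, whose loss in mice disturbs lysosome-related organelles such as melanosomes and platelet granules, gave no call for IL-4 or genotype. *Ap3s1*, a small chain, was the most abundant of its subunits at 124 TPM (92.9 to 181), and *Ap3s2* was at 15.6 TPM (6.62 to 22.6). The large chains *Ap3d1* and *Ap3b1* were at 36.6 TPM (29.8 to 49.2) and 34.4 TPM (21.2 to 47.6), and the medium chains *Ap3m1* and *Ap3m2* at 34.1 TPM (25.8 to 48.6) and 13.8 TPM (7.77 to 21.3). The IL-4 differences ran from -0.20 for *Ap3s2* to 0.22 for *Ap3m2*. The genotype differences ran from -0.11 for *Ap3d1* to 0.58 for *Ap3m2*, which is best known as a neuronal form of the medium chain and did not pass (adjusted p = 0.328 by limma). *Ap3m1* made up 76.9% to 78.7% of the medium-chain TPM in untreated WT, 69.9% to 79.2% in treated WT, 68.5% to 72.1% in untreated KI and 61.8% to 63.5% in treated KI cultures, with no overlap between genotypes in either treatment. This medium-chain share was picked out of 9 shares of subunits or paralogues after the values were seen and has no test.

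*Ap3b1*, the beta chain of AP-3, is given in every library although it passed no threshold, and was chosen after its values were seen. In WT cultures it was at 33.5, 29.3 and 30.7 TPM untreated and at 40.2, 41.1 and 36.0 TPM with IL-4. The KI values were 43.4, 29.3 and 47.6 TPM untreated and at 34.0, 26.8 and 21.2 TPM with IL-4. The 3 WT cultures were thus higher and the 3 KI cultures lower with IL-4, with the widest step in KI T32. The gap between the responses was -0.85 (SE 0.35, unadjusted p = 0.0284, adjusted p = 0.99966, limma's interaction test). *Ap1s1*, *Ap4e1* and *Gga1* also had all WT cultures on one side and all KI cultures on the other, 4 of 32 members in all, against 2.72% of all genes tested.

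AP-4, which exports the autophagy protein ATG9A from the Golgi, was the least abundant adaptor complex and had no call. *Ap4s1* was at 32.2 TPM (22.2 to 44.3), *Ap4b1* at 11.4 TPM (6.03 to 22.4), *Ap4m1* at 5.38 TPM (0.553 to 11.4) and *Ap4e1* at 4.70 TPM (1.76 to 6.50). The IL-4 differences were 0.02, -0.37, 0.76 and 0.20 in that order, and the genotype differences 0.44, 0.61, -0.01 and -0.15. The difference of *Ap4m1* was larger than that of *Clta*, but its SE was 0.48 and it was far from the threshold (adjusted p = 0.962 by limma).

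The GGAs, monomeric adaptors that sort mannose 6-phosphate receptors, had no call either. *Gga1* was at 46.6 TPM (30.9 to 63.2), *Gga2* at 37.1 TPM (21.0 to 58.8) and *Gga3* at 19.1 TPM (9.08 to 27.2). *Gga2* had the most negative IL-4 difference among the members, -0.46 (SE 0.21, adjusted p = 0.864 by limma), and was lower in 4 of 6 cultures. *Gga1* and *Gga3* had IL-4 differences of 0.14 and 0.11.

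Of the remaining accessory genes, *Dnm2*, the dynamin that pinches vesicles from the membrane, was at 102 TPM (81.4 to 128) with an IL-4 difference of -0.04 and a genotype difference of 0.08. *Eps15* and *Epn1*, scaffolds that help AP-2 start a coated pit, were at 33.7 TPM (21.8 to 43.6) and 23.4 TPM (16.1 to 28.8). Their IL-4 differences were 0.14 and 0.01 and their genotype differences -0.07 and -0.19. None of the 3 passed a threshold. Taking all 27 members that passed neither threshold, the adjusted p by limma ran from 0.154 to 0.99986 for IL-4 and from 0.281 to 0.993 for genotype.

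In mean TPM over the 12 libraries the members spanned from 0.273 for *Ap1s3* to 586 for *Ap2m1*, followed by *Clta* at 395, *Dab2* at 315, *Ap2s1* at 275 and *Cltc* at 179. Only 2 of the 32 neighbouring pairs in this order, *Ap2s1* over *Cltc* and *Ap4e1* over *Ap1s3*, kept it in all 12 libraries. The medium and small chains of AP-2 were above its 3 large chains in every library. Among paralogues, *Ap3s1* made up 85.7% to 94.7% of the AP-3 small-chain TPM, *Ap1g1* 55.0% to 77.3% of the AP-1 gamma-chain TPM and *Ap2a1* 51.0% to 71.6% of the AP-2 alpha-chain TPM over the 12 libraries.

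Genes around this machinery gave no call in the F-tests. Of 72 further genes in 4 lists, 57 were expressed, and 0 passed the IL-4, genotype or interaction threshold in either direction. The 13 other adaptor genes (11 tested) had *Aftph*, which partners AP-1, as their smallest IL-4 p, with a difference of 0.66 (SE 0.22, adjusted p = 0.538 by limma). The 41 accessory genes (31 tested) had *Arrb2*, an arrestin that brings receptors to clathrin, as their smallest IL-4 p, with a difference of -0.40 (SE 0.13, adjusted p = 0.400 by limma), followed by *Itsn1*, an endocytic scaffold, with 1.23 (SE 0.41, adjusted p = 0.438 by limma). The same list held *Epn2*, a paralogue of *Epn1*, whose genotype difference of 1.70 (SE 0.36) was the nearest to the threshold (adjusted p = 0.0575 by limma) and passed it in the 1-coefficient test (adjusted p = 0.0190). That test called 442 of all genes higher in KI, against 145 in the F-test. The 6 uncoating genes (5 tested) had *Synj1*, a lipid phosphatase, as their smallest genotype p, with a difference of -0.61 (SE 0.27, adjusted p = 0.415). The 12 cargo genes (10 tested), receptors and other membrane proteins, had *Cd63*, a tetraspanin, as their smallest IL-4 p, with a difference of 0.34 (SE 0.12, adjusted p = 0.644).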

How the data were processed

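RNA of 12 primary microglial libraries was analysed, in 4 groups of 3. Reads were cleaned by the authors in Trim Galore and assigned to GRCm38 transcripts by Salmon, and gene values came from tximport; tool versions are not given in the sources used here. The deposited values are TPM, so DESeq2, which the authors applied to read counts, was not used. Identifiers were matched to the GENCODE annotation of GRCm38.

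TPM were taken as log2(TPM + 1). Genes with a mean above 1.5 (11204) were fitted with limma 3.58.1 in R 4.3.3 (eBayes with trend; genotype, IL-4 and interaction; all 12 libraries). F-tests joined each main effect with the interaction, and a direction was taken from the difference averaged over the other factor. Tables and plots were made in Python 3.11.15. The fit was tested on simulated data. The untreated and the treated library of a culture share its T number in the labels, which pairs them. Their deviations from the group means correlated at 0.079 to 0.378, and 5 of 6 cultures correlated best with themselves. Alternatives were other pseudocounts, filters, scalings and variance models, a replicate block, and leaving out each culture.

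Values in every library were given for members past a threshold and for *Cltc*, *Clta*, *Cltb*, *Picalm*, *Ap1b1* and *Ap2m1*, and for *Ap3b1*, which was chosen after its values were seen; from the other lists, up to 3 genes with the smallest p-values could be named. The members and lists were chosen with earlier results of these data known. Salmon divides reads among similar transcripts, so close paralogues are less certain than TPM show. P-values measure the spread between libraries within a group, and those for genotype do not allow for libraries that share a culture.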

Additional observations from a re-analysis of the deposited data

Results flagged for a closer look

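In 4 members every WT culture moved one way with IL-4 and every KI culture the other way, although no difference between the responses passed the threshold (adjusted p = 0.99966 for each, limma's interaction test). The difference of the responses, KI minus WT on the log2(TPM + 1) scale, was -0.85 for *Ap3b1* (SE 0.35, unadjusted p = 0.0284), -0.57 for *Gga1* (SE 0.36, unadjusted p = 0.135), -0.24 for *Ap1s1* (SE 0.29, unadjusted p = 0.415) and 1.02 for *Ap4e1* (SE 0.62, unadjusted p = 0.122). *Gga1* was higher with IL-4 in the 3 WT cultures by 0.26 to 0.54 and lower in the 3 KI cultures by 0.11 to 0.17. *Ap4e1* had the reverse pattern at 1.76 to 6.50 TPM. *Ap1s1* hardly moved in WT cultures T33 and T43, by 0.013 and 0.0049. The *Ap3b1* value was -0.55 without KI T32 (unadjusted p = 0.140), the culture with the widest step.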

How the results depend on the processing

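The IL-4 count of 3 members was 1, *Ap2m1*, with no expression filter, with median-ratio scaling and with no variance trend, and from 1 to 3 with each culture left out. The genotype count of 2 members was 0 with no expression filter and with no variance trend, 1 (*Cltb*) with culture as a random replicate block, and from 0 to 2 with each culture left out. The replicate-block alternative took culture as a fixed, paired block for IL-4 and the interaction, and as a random block for genotype. The fixed block gave 3 members for IL-4 and 0 for the interaction. The random block changed the genotype call of *Dab2* alone. Over all genes, the fixed block gave 201 higher and 39 lower with IL-4 against 84 and 16 without it. The random block gave 56 higher and 21 lower in KI against 145 and 40. The 1-coefficient test added *Picalm* to the IL-4 count, making 4. Over all genes that test called 128 higher with IL-4 against 84 in the F-test, and 442 higher and 133 lower in KI against 145 and 40. The other alternatives, a pseudocount of 0.1, a filter at 3 and quantile normalization, kept the IL-4 count at 2 or 3 and the genotype count at 2, and the interaction count was 0 in each fit. The cause of the lost calls was not tested. Of 1242 single differences recomputed, 27 lost a call and 0 gained one, 0 with a call changed sign and 80 without one did, each of at most 0.32 in size in the fit reported. The depth of each library is unknown from TPM, so a low value such as that of *Ap4m1* has no counting error attached.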
